A study of Mus musculus with 15 samples.

Results

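Expression of 41 antioxidant and redox defence genes was measured by RNA sequencing in 15 mouse tumors driven by Myc or MYCN. The genes were chosen by name, for their known place in the superoxide, peroxide, thioredoxin, glutathione and Nfe2l2 pathways, and they are 41 of the 23329 genes counted. Of them 40 had over 1 CPM (counts relative to library size, scaled by TMM, with 3 reads worth 0.173 to 0.586 CPM) in at least 3 tumors and were tested, as were 14880 of all genes. The exception was *Gsta4*, a glutathione S-transferase that conjugates lipid aldehydes, with 0 to 12 reads per tumor and at most 2.34 CPM.

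Superoxide dismutases turn superoxide into hydrogen peroxide, and catalase, glutathione peroxidases and peroxiredoxins then remove the peroxide. Thioredoxin and glutathione supply electrons to the peroxiredoxins and glutathione peroxidases, and each is kept reduced by its own reductase with NADPH. The transcription factor Nfe2l2 switches on many of these genes when its inhibitor Keap1 is modified under oxidative stress, and tissues that lack the protease caspase-2 have been described as handling such stress poorly.

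The *EμMyc* transgene places c-Myc under the enhancer of the immunoglobulin heavy chain, active in the B lineage, and *Th-MYCN* places MYCN under the promoter of tyrosine hydroxylase, active in neuroblasts of the sympathetic lineage. The groups were 4 *EμMyc* lymphomas with wild type *Casp2* (onset at 13 to 19 weeks), 3 *EμMyc/Casp2*-/- lymphomas (8 to 12 weeks), 4 *Th-MYCN* neuroblastomas with wild type *Casp2* (10 to 21 weeks) and 4 *Th-MYCN/Casp2*-/- neuroblastomas (15 to 24 weeks). Lymphomas came from cervical lymph nodes of C57BL/6 mice and neuroblastomas from paraspinal thoracic tumors of Sv129/C57BL6 mice, picked for little or no blood supply, with 1 library per mouse. Tumor type, tissue site and strain background therefore cannot be told apart. Nor can genotype and onset in the lymphomas, where the onset ranges do not overlap. Between the null tumors the onset ranges of lymphomas and neuroblastomas do not overlap either, so tumor type and onset cannot be told apart there.

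Summed over 7 B cell markers the lymphomas held 1892 to 4849 CPM and the neuroblastomas 4.32 to 14.9. For 8 sympathetic neuroblast markers the sums were 1.89 to 17.4 CPM in the lymphomas and 2572 to 4849 in the neuroblastomas, so both tissues carried the markers of their label. The tumor EuMycC2ko215 stood apart from the other lymphomas. Its 10 T cell markers summed to 1625 CPM (103 to 321 in the other 6 lymphomas), with *Lck* the most abundant at 412 CPM, its *Myc* was 498 CPM (1238 to 1914 in the others), it had the smallest library of the series, with 4940464 reads, and 11.2% of its reads did not map. It was also the only lymphoma with *Xist* above *Ddx3y*, the pattern of a female mouse. A value without it is given where leaving it out changed a call or moved a printed fold change by over 1.5 times, and for some others.

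*Casp2* itself checks the labels. Its level was 167, 125, 203 and 139 CPM in the *EμMyc* lymphomas and 58.02, 51.9 and 76.1 in the *EμMyc/Casp2*-/- lymphomas (log2 fold change -1.35 ± 0.25, FDR 0.0536, edgeR quasi-likelihood test). In the neuroblastomas it was 125, 93.3, 76.01 and 106 CPM in the wild type and 80.2, 57.7, 39.6 and 54.5 in the null tumors (log2 fold change -0.79 ± 0.23, FDR 0.327). All null lymphomas lay below all wild type lymphomas, while MYCNC2ko118 lay above MYCN332, and reads on the gene were present in each null tumor. Counts per gene cannot tell whether these reads came from the deleted exons. The study checked the deletion separately in every tumor, by the genotype of the mouse and by protein blot.

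Per kilobase of transcript, the scale on which genes can be compared, the leading redox genes were the following. *Ucp2*, an uncoupling protein of the inner mitochondrial membrane that limits superoxide release, led the *EμMyc* lymphomas with a mean of 558 CPM per kb, followed by cytosolic thioredoxin *Txn1* (472), the glutathione peroxidase *Gpx1* (369) and the cytosolic superoxide dismutase *Sod1* (319). In the *EμMyc/Casp2*-/- lymphomas the same 4 led in another order, *Gpx1* (565), *Txn1* (473), *Sod1* (444) and *Ucp2* (436). In the *Th-MYCN* neuroblastomas the peroxiredoxin *Prdx2* led with 409 CPM per kb, then *Sod1* (378), *Txn1* (242) and *Gpx1* (148), and *Ucp2* was 12th with 45.9. The *Th-MYCN/Casp2*-/- neuroblastomas had the same first 4, *Prdx2* (461), *Sod1* (394), *Txn1* (278) and *Gpx1* (131), with *Ucp2* 17th at 26.2. At the bottom in every group, at no more than 1.17 CPM per kb, were *Gsta4*, the quinone reductase *Nqo1* and the cystine importer *Slc7a11*.

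The 41 genes together took 4821 to 6809 CPM in the lymphomas and 3161 to 3780 CPM in the neuroblastomas. *Ucp2* made up 18.4% to 44.5% of that sum in the lymphomas and 2.17% to 5.81% in the neuroblastomas. Without *Ucp2* the sums were 3230 to 4368 CPM in the *EμMyc*, 3440 to 4907 in the *EμMyc/Casp2*-/-, 3212 to 3420 in the *Th-MYCN* and 3093 to 3652 in the *Th-MYCN/Casp2*-/- tumors. Each pair of these ranges overlapped but 1, since every *EμMyc/Casp2*-/- lymphoma lay above the *Th-MYCN* range.

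**Figure D1:**
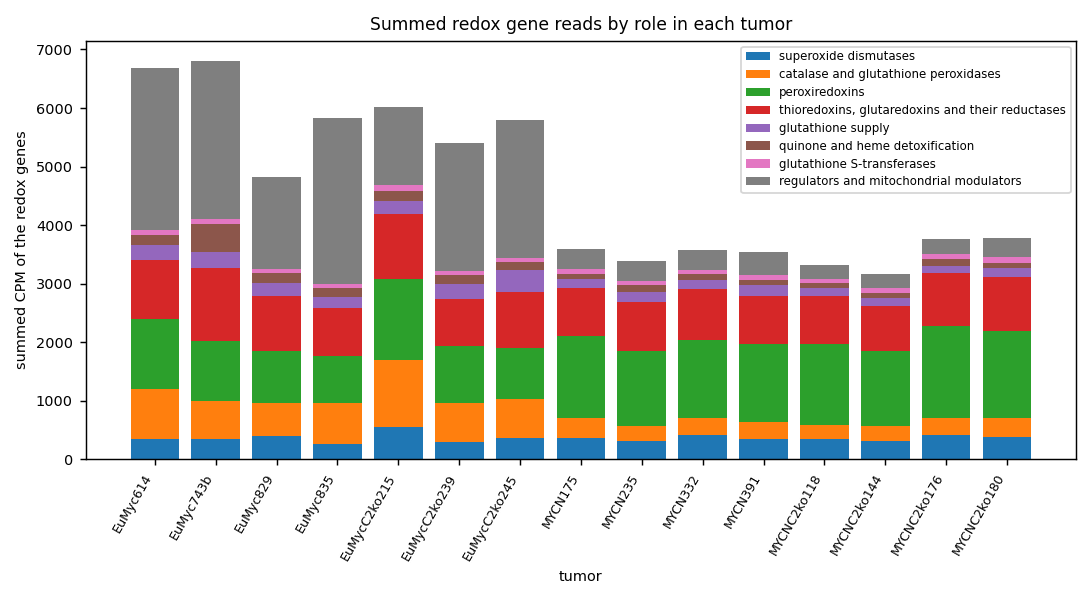
Stacked bars give the summed CPM (y axis) of the 41 redox genes in each of the 15 tumors (x axis), with 1 colour per functional group. The 7 lymphomas reach 4821 to 6809 CPM and the 8 neuroblastomas 3161 to 3780, and the segment of regulators and mitochondrial modulators, which holds *Ucp2*, is far taller in the lymphomas.

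Redox genes differed between the tumor types about as often as other genes did. Between *EμMyc* and *Th-MYCN* tumors 23 of the 40 tested were called at an FDR under 0.05 (57.5%, with 14 higher and 9 lower in lymphoma), where the share of all 14880 genes called was 60.3% (27.4% higher and 32.9% lower). With *Casp2* null in both, 20 of 40 were called (50.0%, with 14 higher and 6 lower), against 58.3% of all genes (26.8% higher and 31.4% lower). Groups did not overlap for 21 redox genes in the first comparison (59.4% of all genes) and 20 in the second (54.8%). The median log2 fold change of the 40 was 0.20 in the first and 0.30 in the second comparison, beside -0.04 and -0.05 over all genes tested. Without EuMycC2ko215 the second comparison called 24 of the 40 (beside 58.7% of all genes), with 15 higher and 9 lower. It then gained *Sod3*, *Gpx7*, *Prdx3*, *Gclm*, *Nqo1* and *Sirt3* and lost *Slc7a11* and *Hmox2*.

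Both comparisons, which share no tumor, called 18 of the 40 redox genes in the same direction (45.0%), where 50.4% of all genes tested were so called. Of the 18, 12 were higher in lymphoma (22.3% of all genes) and 6 lower (28.2%). Higher in lymphoma were *Ucp2*, *Cat*, *Nfe2l2*, *Hmox1*, *Gclc*, *Mgst1*, *Gpx1*, *Txn2*, *Prdx1*, *Txn1*, *Txnrd2* and *Glrx*, and lower were *Srxn1*, *Mgst3*, *Prdx2*, *Txnrd1*, *Gpx4* and *Gstm1*. In 16 of the 18 the groups did not overlap in either comparison (40.0% of the redox genes and 43.5% of all genes), the exceptions being *Glrx* and *Gstm1*. None of the 18 lost its call or moved by over 1.5 times between the null tumors without EuMycC2ko215. With other single tumors left out, *Hmox1* lost its call between the null tumors, as given beside its values, and *Glrx* and *Gstm1* lost theirs between the wild type tumors. For *Glrx* this was so without EuMyc614 (FDR 0.0618), EuMyc743b (0.0747), MYCN235 (0.0629) or MYCN332 (0.0650), and for *Gstm1* without EuMyc614 (0.0716) or MYCN391 (0.0870). Because these are bulk tumors, fewer cells of a type and less RNA per cell cannot be told apart.

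**Figure D2:**
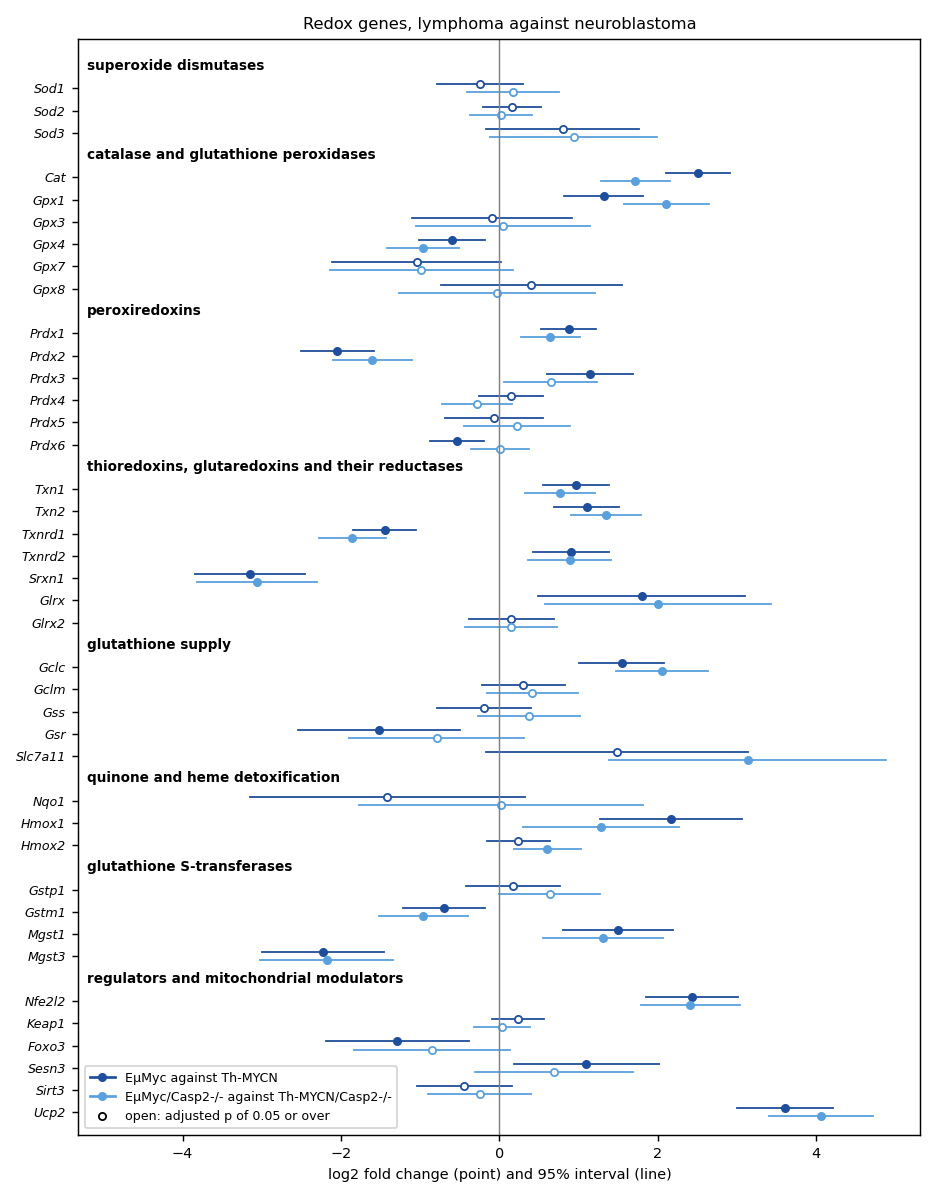
Log2 fold changes (x axis) of the 40 tested redox genes between lymphoma and neuroblastoma, grouped by role, with lines for the 95% interval; dark blue is *EμMyc* against *Th-MYCN*, light blue the *Casp2* null pair, and filled points have an FDR under 0.05. *Ucp2* lies farthest to the right in both comparisons (3.60 and 4.05) and *Srxn1* farthest to the left (-3.15 and -3.06), while the intervals of the 3 superoxide dismutases include 0 in both.

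Nfe2l2 binds the antioxidant response element, whose core TGACNNNGC was searched on both strands in RefSeq promoter windows (250 bases before to 50 after the start site, GRCm38.p6). A match was found for 9 of the 35 redox genes with a window (25.7%) and for 14.0% of the 27025 genes with one. Those were *Nfe2l2*, *Srxn1*, *Gclm*, *Prdx1*, *Mgst1*, *Ucp2*, *Sirt3*, *Txnrd1* and *Sod1*. *Gsr*, *Sod3*, *Prdx6*, *Hmox1*, *Gsta4* and *Gclc* had no window. The stretches of the 5 genes called in both comparisons with a match before the start site are shown 5′ to 3′ on the strand of the gene, with the match in capitals (as its reverse complement, GCNNNGTCA, where it lies on the other strand), so that the letters can be set beside their opposite directions:
Nfe2l2 (chr2:75704870-75704913, minus strand): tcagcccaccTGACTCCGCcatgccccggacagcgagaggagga
Ucp2 (chr7:100493267-100493325, plus strand): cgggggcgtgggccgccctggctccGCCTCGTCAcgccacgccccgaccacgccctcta
Prdx1 (chr4:116685441-116685499, plus strand): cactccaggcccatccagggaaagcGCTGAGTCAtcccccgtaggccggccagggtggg
Mgst1 (chr6:138140446-138140504, plus strand): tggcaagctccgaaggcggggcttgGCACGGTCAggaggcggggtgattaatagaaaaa
Txnrd1 (chr10:82859089-82859147, plus strand): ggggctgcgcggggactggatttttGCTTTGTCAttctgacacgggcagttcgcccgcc
The first 4 belong to genes that were higher in lymphoma and the last to a gene that was lower. In *Srxn1*, also lower, the match lay after the start site, at bases 29 to 37. These are matches of letters, and binding was not measured.

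Among the regulators, the mRNA of *Nfe2l2* differed between tumor types and that of *Keap1* did not pass the test. *Nfe2l2* was at 110.3, 95.5, 66.9 and 65.9 CPM in *EμMyc*, 69.7, 93.1 and 59.6 in *EμMyc/Casp2*-/-, 15.1, 12.7, 11.4 and 23.6 in *Th-MYCN* and 9.36, 17.3, 14.9 and 14.3 in *Th-MYCN/Casp2*-/- tumors. All 7 lymphomas lay far above all 8 neuroblastomas, and the log2 fold changes were 2.43 ± 0.27 (FDR 2.66e-06) and 2.41 ± 0.29 in the null tumors (FDR 5.73e-06). *Keap1*, which marks the Nfe2l2 protein for degradation, had means of 118 ± 16.2 (SD, n = 4), 101 ± 12.8 (SD, n = 3), 100.4 ± 14.3 (SD, n = 4) and 98.7 ± 6.16 (SD, n = 4) CPM in the same order. Its log2 fold changes were 0.23 ± 0.15 (95% interval -0.09 to 0.56) and 0.03 ± 0.17 (-0.32 to 0.38), so a difference above 1.5-fold lay outside both intervals.

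*Ucp2* had the widest gap of all redox genes. It was at 2507, 2441, 1365 and 2591 CPM in *EμMyc* and 1106, 1963 and 2143 in *EμMyc/Casp2*-/- lymphomas, against 189, 184, 153 and 206 in *Th-MYCN* and 73.8, 68.6, 117 and 159 in *Th-MYCN/Casp2*-/- neuroblastomas. EuMyc829 and EuMycC2ko215 were the lowest lymphomas, and both were still far above every neuroblastoma (log2 fold changes 3.60 ± 0.29, FDR 1.11e-07, and 4.05 ± 0.31, FDR 7.09e-08). Exons of *Ucp2* overlap *Dnajb13* on the opposite strand, and these libraries do not mark strand, but counted on either strand at once, where a read shared by both genes is dropped, *Ucp2* kept 100% of its strand-assigned reads. Of the other regulators, the forkhead factor *Foxo3* was lower (-1.29) and the stress-induced sestrin *Sesn3* higher (1.10) in *EμMyc* than in *Th-MYCN* tumors. Between the null tumors neither was called, with -0.85 (FDR 0.13) for *Foxo3* and 0.69 (FDR 0.214) for *Sesn3*. The call of *Sesn3* in the wild type tumors was lost when any of EuMyc829, EuMyc835 and the 4 *Th-MYCN* tumors was left out (FDR 0.0622 to 0.165) and with reads on either strand (0.0674), and *Foxo3* was called between the null tumors without MYCNC2ko176 (FDR 0.0250). The mitochondrial deacetylase *Sirt3* (-0.44 and -0.25) was not called in either comparison, but had -0.74 between the null tumors without EuMycC2ko215 (FDR 0.0180).

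The superoxide dismutases did not pass the test in either comparison. *Sod1* was at 137 to 434 CPM in lymphomas and 198 to 319 CPM in neuroblastomas, mitochondrial *Sod2* at 99.8 to 166 and 92.0 to 127, and extracellular *Sod3* at 2.73 to 18.1 and 4.07 to 9.63. The 95% intervals of the log2 fold change between *EμMyc* and *Th-MYCN* tumors were -0.78 to 0.29 for *Sod1*, -0.20 to 0.52 for *Sod2* and -0.17 to 1.77 for *Sod3*. For *Sod1* and *Sod2* a difference of 2-fold lay outside them, and for *Sod3* it did not. Between the null tumors *Sod3* was called without EuMycC2ko215 (1.44, FDR 0.00738).

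Peroxide removal by catalase and *Gpx1* was encoded at higher levels in lymphoma. Catalase (*Cat*), the peroxisomal enzyme that splits hydrogen peroxide, was at 288, 193, 162 and 200.05 CPM in *EμMyc*, 144, 165 and 131 in *EμMyc/Casp2*-/-, 33.6, 39.6, 34.1 and 40.9 in *Th-MYCN* and 40.8, 55.6, 35.4 and 46.4 in *Th-MYCN/Casp2*-/- tumors. All 7 lymphomas lay above all 8 neuroblastomas (log2 fold changes 2.51 ± 0.19, FDR 3.95e-08, and 1.72 ± 0.21, FDR 3.79e-06). *Gpx1*, the main cytosolic glutathione peroxidase, was at 439, 345, 344 and 452 CPM in *EμMyc*, 873, 462 and 482 in *EμMyc/Casp2*-/-, 211, 132, 137 and 154 in *Th-MYCN* and 123, 105, 166 and 169 in *Th-MYCN/Casp2*-/- tumors. It was highest in EuMycC2ko215, and the log2 fold changes were 1.32 ± 0.23 (FDR 0.000186) and 2.11 ± 0.25 (FDR 4.48e-06), the latter 1.81 without that tumor.

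*Gpx4*, which reduces lipid peroxides in membranes, was lower in lymphoma (-0.59 and -0.96), at 14.5 to 25.6 CPM against 29.7 to 38.3. Only 35.01% of its strand-assigned reads fell in the strand column used, where the libraries as a whole had 48.8% to 49.3%, and a processed pseudogene is named after it, so its counts are uncertain. The secreted *Gpx3* (-0.09 and 0.05) and the endoplasmic reticulum members *Gpx7* (-1.05 and -0.98) and *Gpx8* (0.40 and -0.03) were not called in either comparison, the values being the log2 fold changes in wild type and null tumors. Without EuMycC2ko215 those between the null tumors were -0.89 for *Gpx3* (FDR 0.123), -1.82 for *Gpx7* (0.0130) and -1.02 for *Gpx8* (0.144).

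The peroxiredoxins, thiol enzymes that reduce peroxides, split in direction. *Prdx2*, a cytosolic member, was at 189, 169.8, 158 and 121 CPM in *EμMyc* and 369, 186 and 180.00 in *EμMyc/Casp2*-/- lymphomas, and at 649.7, 645, 673 and 672 in *Th-MYCN* and 691, 618, 831 and 832 in *Th-MYCN/Casp2*-/- neuroblastomas. Every lymphoma lay below every neuroblastoma, with EuMycC2ko215 the highest lymphoma (log2 fold changes -2.05 ± 0.22, FDR 1.24e-06, and -1.60 ± 0.23, FDR 4.44e-05). Its exons overlap *Junb* and *Rnaseh2a* on the opposite strand, and by the same measure it kept 99.9995% of its reads. Red cells hold much *Prdx2*, and of the red cell genes *Hba-a1*, *Hba-a2*, *Hbb-b1* and *Hbb-b2* were at 0 reads in all 15 tumors and *Alas2* was at 0.918 to 41.3 CPM in the lymphomas and 1.30 to 5.94 in the neuroblastomas. These globin genes are near-identical pairs and reads that mapped to several places were left out, so their zeros do not measure red cells. The part of red cells in the *Prdx2* values was not tested.

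Cytosolic *Prdx1* was higher in lymphoma, at 224 to 362 CPM against 151 to 187 (0.87 and 0.64). Mitochondrial *Prdx3* was higher in *EμMyc* than in *Th-MYCN* tumors (1.14, FDR 0.00129) and had 0.65 (FDR 0.0527) in the null tumors, where it was called without EuMycC2ko215 (FDR 0.0322) or EuMycC2ko245 (0.0259). *Prdx6*, which also acts on phospholipid peroxides, was lower in *EμMyc* (-0.54) and had a value of 0.01 (95% interval -0.36 to 0.37) between the null tumors. *Prdx4* (0.14 and -0.28) of the endoplasmic reticulum and *Prdx5* (-0.07 and 0.22) were not called in either comparison.

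In the thioredoxin system 6 of 7 genes were called in each comparison (85.7%, against 60.3% and 58.3% of all genes), the same 6 each time, with thioredoxins higher and *Txnrd1* and *Srxn1* lower in lymphoma. *Txn1* was at 388 to 622 CPM in lymphomas and 225 to 364 CPM in neuroblastomas (0.97 and 0.77), with EuMyc835 and EuMycC2ko239 the lowest lymphomas. Mitochondrial *Txn2* was at 272, 358, 228 and 239 CPM in *EμMyc*, 317, 222 and 281 in *EμMyc/Casp2*-/-, 111, 129, 142 and 128 in *Th-MYCN* and 91.04, 83.4, 127 and 129.9 in *Th-MYCN/Casp2*-/- tumors (1.10 ± 0.19, FDR 0.00015, and 1.34 ± 0.21, FDR 5e-05). *Txnrd2* (0.90 and 0.89), its mitochondrial reductase, and the glutaredoxin *Glrx* (1.80 and 2.0) were also higher, while mitochondrial *Glrx2* (0.15 and 0.15) was not called.

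*Txnrd1*, the cytosolic thioredoxin reductase, ran the other way. It was at 136, 186, 106 and 106 CPM in *EμMyc*, 89.3, 118 and 96.5 in *EμMyc/Casp2*-/-, 314, 392, 394 and 357 in *Th-MYCN* and 418, 328, 325 and 394 in *Th-MYCN/Casp2*-/- tumors. The highest lymphoma, EuMyc743b, was below the lowest neuroblastoma, MYCN175 (log2 fold changes -1.45 ± 0.19, FDR 8.2e-06, and -1.86 ± 0.20, FDR 2.54e-06).

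*Srxn1*, sulfiredoxin, restores overoxidised peroxiredoxins. It was at 2.36, 4.71, 2.36 and 3.50 CPM in *EμMyc* and 5.67, 2.75 and 1.82 in *EμMyc/Casp2*-/- lymphomas, and at 22.1, 28.8, 34.9 and 29.1 in *Th-MYCN* and 26.00, 29.1, 25.9 and 30.1 in *Th-MYCN/Casp2*-/- neuroblastomas. The log2 fold changes were -3.15 ± 0.32 (FDR 1.42e-06) and -3.06 ± 0.36 (FDR 8.59e-06), the largest drops among the redox genes in both comparisons. *Srxn1* and *Txnrd1* are known targets of Nfe2l2, whose own mRNA was higher in the lymphomas.

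In glutathione supply, *Gclc*, the catalytic subunit of the rate-limiting enzyme of glutathione synthesis, was higher in lymphoma and its modifier subunit *Gclm* was not called. *Gclc* was at 164, 173, 153 and 118 CPM in *EμMyc*, 115, 135 and 297 in *EμMyc/Casp2*-/-, 45.1, 56.9, 47.04 and 59.8 in *Th-MYCN* and 49.3, 48.6, 36.8 and 40.9 in *Th-MYCN/Casp2*-/- tumors, with EuMycC2ko245 the highest (1.54 ± 0.25, FDR 9.15e-05, and 2.05 ± 0.27, FDR 1.23e-05). *Gclm* had log2 fold changes of 0.30 (95% interval -0.23 to 0.83) and 0.42 (-0.16 to 0.99), the latter 0.77 (FDR 0.00584) without EuMycC2ko215. Glutathione reductase *Gsr* ranged among lymphomas from 6.22 CPM in EuMyc829 to 52.6 in EuMycC2ko239, and was lower in *EμMyc* than in *Th-MYCN* tumors (-1.52, FDR 0.0136). Between the null tumors its groups overlapped, and it was not called (-0.79, FDR 0.209). Glutathione synthetase *Gss* (-0.19 and 0.37) was not called.

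*Slc7a11*, the cystine importer, was at 0.787, 2.57, 1.02 and 6.05 CPM in *EμMyc* and 23.1, 7.85 and 1.21 in *EμMyc/Casp2*-/- lymphomas and at 0.432 to 1.74 CPM in the neuroblastomas. It was called in the null comparison (3.13 ± 0.82, FDR 0.00524), although EuMycC2ko245 lay within the range of the neuroblastomas and EuMycC2ko215 was by far the highest. Without that tumor the value was 1.97 and the call was lost (FDR 0.0516). Between the wild type tumors *Slc7a11* was not called (1.48 ± 0.77, FDR 0.117).

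Heme oxygenase *Hmox1*, the inducible enzyme that breaks down heme, was at 97.01, 384, 80.00 and 76.1 CPM in *EμMyc*, 36.9, 56.5 and 42.00 in *EμMyc/Casp2*-/-, 32.3, 46.1, 32.5 and 31.6 in *Th-MYCN* and 15.6, 16.4, 20.1 and 22.3 in *Th-MYCN/Casp2*-/- tumors. EuMyc743b was far above the rest, and within each genotype the lymphomas lay above the neuroblastomas (log2 fold changes 2.16 ± 0.42, FDR 0.000539, and 1.28 ± 0.46, FDR 0.0248). Without EuMyc743b the first was 1.25. The call between the null tumors was lost with sex (FDR 0.0631) or onset (0.245) as a covariate, and without EuMycC2ko239 (0.0725), MYCNC2ko118 (0.0610) or MYCNC2ko144 (0.0584). The constitutive *Hmox2* was called in the null comparison (0.60, FDR 0.0155), but not without EuMycC2ko215 (0.47, FDR 0.0585) or MYCNC2ko118 (FDR 0.0520), and not between the wild type tumors (0.24, FDR 0.274). Exons of *Hmox2* overlap *Cdip1* on the opposite strand, and by the same measure it kept 69.0% of its reads. *Nqo1* was at 0 to 4.10 CPM in lymphomas, or 0 to 21 reads, and at 0.981 to 1.73 CPM in neuroblastomas, and was not called. Without EuMycC2ko215 its value between the null tumors was -2.32 (FDR 0.0239).

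Of the 4 glutathione S-transferases tested, 3 were called in each comparison, where 60.3% and 58.3% of all genes were. The microsomal *Mgst1* was at 27.03, 26.8, 28.3 and 26.9 CPM in *EμMyc*, 21.7, 13.4 and 20.8 in *EμMyc/Casp2*-/-, 12.4, 5.23, 5.48 and 15.5 in *Th-MYCN* and 7.63, 7.90, 8.10 and 6.34 in *Th-MYCN/Casp2*-/- tumors (1.49 ± 0.33, FDR 0.00115, and 1.31 ± 0.36, FDR 0.00493). *Mgst3*, a microsomal enzyme of the same family, ran the other way at 4.37, 3.25, 2.91 and 6.37 CPM in *EμMyc*, 5.86, 3.84 and 6.76 in *EμMyc/Casp2*-/-, 35.4, 17.3, 13.9 and 12.3 in *Th-MYCN* and 23.98, 21.4, 23.8 and 30.3 in *Th-MYCN/Casp2*-/- tumors (-2.22 ± 0.36, FDR 0.000108, and -2.18 ± 0.39, FDR 0.000376). The 2 genes thus separated the tumor types in opposite directions without overlap within either genotype. Cytosolic *Gstm1* was lower in lymphoma (-0.70 and -0.96). *Gstp1* (0.17 and 0.63) was not called, except between the null tumors without EuMycC2ko245 (0.91, FDR 0.0123), and with 24.7% of its strand-assigned reads in the column used and a pseudogene of its own its counts are uncertain.

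**Figure D3:**
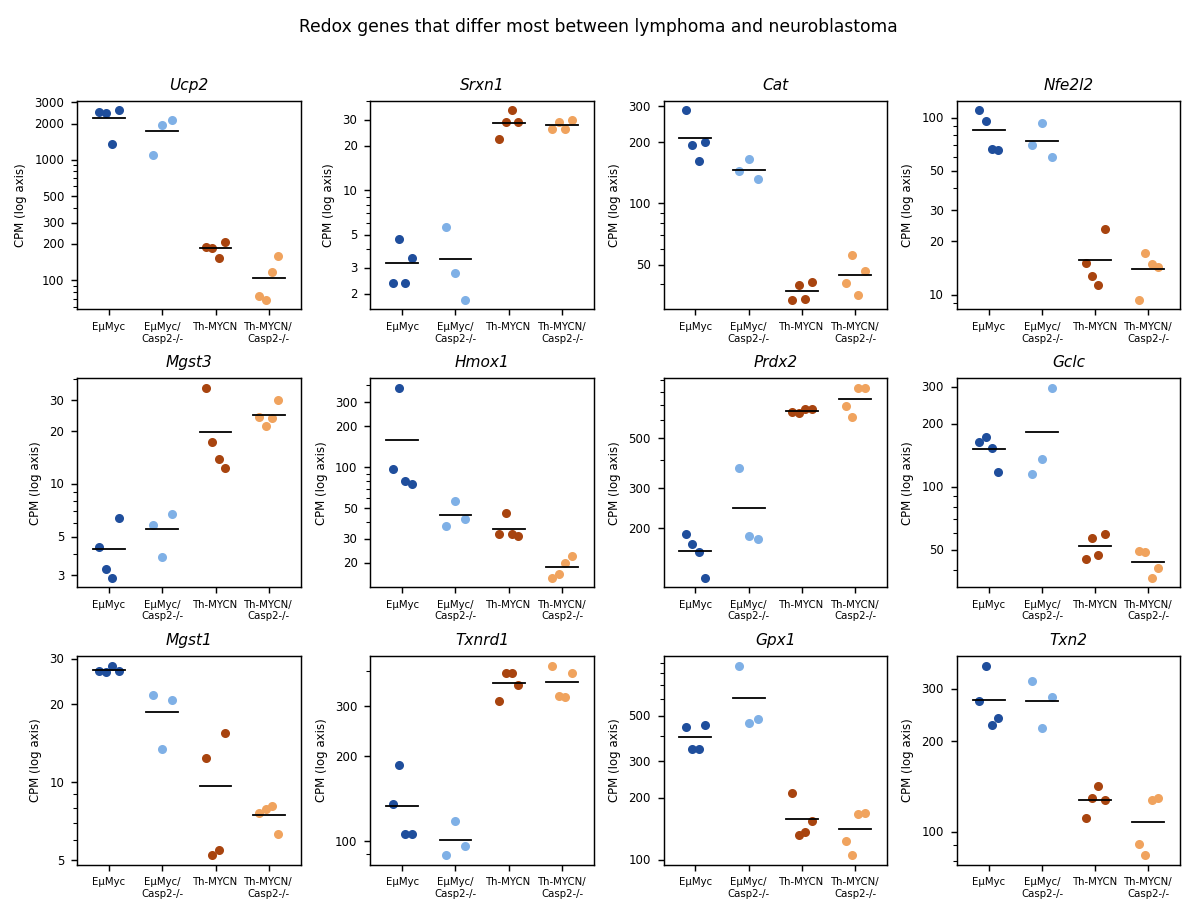
CPM on a log axis (y) for each tumor in the 4 groups (x) for the 12 redox genes with the largest differences among those called without overlap in both tumor type comparisons; each point is 1 tumor and each line a group mean. That the lymphoma points (blue) and the neuroblastoma points (orange) of a genotype stay apart was the condition for showing a gene, and the panels give the levels, with *Hmox1* of EuMyc743b at 384 CPM far above its group.

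Loss of *Casp2* gave no called redox gene in the neuroblastomas. By the edgeR quasi-likelihood test 0 of 40 passed at an FDR under 0.05, where 0.0336% of all genes did, and the likelihood ratio test (0.894% of all genes) and DESeq2 (0.948%) also called 0. An unadjusted p under 0.05 was reached by 3 of the 40 (6.77% of all genes), and groups did not overlap for 3 (6.62% of all genes). The median log2 fold change was -0.02, and 19 of the 40 values were above 0.

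The 4 genes with the smallest p-values in the neuroblastomas were *Ucp2*, *Prdx4*, *Hmox1* and *Prdx6*. *Ucp2* was at 189, 184, 153 and 206 CPM in wild type and 73.8, 68.6, 117 and 159 CPM in null neuroblastomas (-0.81 ± 0.29 on the log2 scale, FDR 0.497). The null tumors MYCNC2ko118 and MYCNC2ko144 were the lowest, and MYCNC2ko180 lay within the wild type range. *Prdx4*, the peroxiredoxin of the endoplasmic reticulum, was at 94.8, 72.9, 67.5 and 74.98 CPM in wild type and 104, 100.2, 139 and 94.8 CPM in null neuroblastomas (0.50 ± 0.19, FDR 0.569), with every null tumor above every wild type one but MYCNC2ko180 above MYCN175 by less than the printed digits.

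*Hmox1* was at 32.3, 46.1, 32.5 and 31.6 CPM in *Th-MYCN* and 15.6, 16.4, 20.1 and 22.3 in *Th-MYCN/Casp2*-/- tumors (-0.94 ± 0.43, FDR 0.721). *Prdx6* was at 347, 255, 254 and 273 CPM in wild type and 224, 221, 241 and 212 CPM in null neuroblastomas (-0.33 ± 0.16, FDR 0.747). For both, all null tumors lay below all wild type tumors.

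Sums of marker genes also differed between these groups. For 8 sympathetic neuroblast markers, which stand for the tumor cells, the sums were 4849, 4072, 4077 and 4141 CPM in the wild type and 3415, 2572, 3977 and 3724 in the null tumors, with *Ddc* the most abundant. Over 6 endothelial markers they were 80.1, 53.2, 50.8 and 49.96 and 27.4, 28.9, 26.9 and 41.02 CPM, with *Pecam1* the most abundant at 17.9 to 27.0 and 8.29 to 12.7 CPM. Both sums were lower in all null tumors than in all wild type tumors, and no gene of either list was at 0. The 5 Schwann cell markers, none of them at 0, summed to 32.2, 33.1, 70.5 and 38.7 CPM in the wild type and 50.8, 65.2, 138 and 103 in the null tumors, and the 10 macrophage markers, with *Lyz2* the most abundant and *Vsig4* at 0 in MYCNC2ko176, to 782, 691, 655 and 947 and 387, 507, 793 and 907. The groups overlapped in these last sums, none of the tested markers was called, and their part in the redox values was not tested.

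In the lymphomas the quasi-likelihood test also called 0 of 40 (0.141% of all genes), while the likelihood ratio test (1.5% of all genes) and DESeq2 (1.47%) each called 1, *Hmox1*. An unadjusted p under 0.05 was reached by 6 of the 40 (8.53% of all genes), and groups did not overlap for 4 (3.70% of all genes), with *Gpx1* and *Hmox2* above (1.75%) and *Hmox1* and *Mgst1* below (1.96%). The median log2 fold change was -0.000637, with 20 of the 40 above 0. Without EuMycC2ko215 the quasi-likelihood test called 0 as well.

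*Hmox1* was at 97.01, 384, 80.00 and 76.1 CPM in *EμMyc* and 36.9, 56.5 and 42.00 in *EμMyc/Casp2*-/- lymphomas, all null tumors below all wild type tumors (-1.82 ± 0.46, 95% interval -2.79 to -0.84). The FDR was 0.197 by the quasi-likelihood test, 0.0197 by the likelihood ratio test and 0.0133 by DESeq2, and over all 16 alternatives it ran from 0.0133 to 0.982. EuMyc743b carried much of the difference, and without it the log2 fold change was -0.90 (FDR 0.210, quasi-likelihood test). That tumor also had the highest neutrophil marker sum, 512 CPM against 14.5 to 186 in the other lymphomas, with *S100a9* the most abundant of the 6 and none at 0. Macrophage sums were 708, 1256, 775 and 567 CPM in wild type and 1717, 1034 and 341 in null lymphomas. T cell sums were 103, 117, 129 and 218 CPM in wild type and 1625, 321 and 205 in null lymphomas. Only EuMycC2ko245 of the null tumors lay within the wild type range of T cell sums. Of the 321 CPM in EuMycC2ko239, *Cd2* gave 104, *Cd4* 83.0 and *Zap70* 74.4, and *Cd2* reached 122 in the wild type EuMyc835. *Lck* in EuMycC2ko239 was 28.9 CPM, within the wild type range of 15.7 to 47.5. Its *Cd3d*, *Cd3e* and *Cd3g* were 3.92, 4.42 and 4.76 CPM, against at most 2.05, 2.34 and 4.36 in the wild type. The part of these cell types in the redox values was not tested, and the *Hmox1* difference was not called by the quasi-likelihood test.

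The other 3 with the smallest p-values were *Prdx2*, *Cat* and *Gpx1*. *Prdx2* was at 189, 169.8, 158 and 121 CPM in wild type and 369, 186 and 180.00 CPM in null lymphomas (0.62 ± 0.23, FDR 0.419). *Gpx1* was at 439, 345, 344 and 452 CPM in wild type and 873, 462 and 482 CPM in null lymphomas (0.62 ± 0.25, FDR 0.475). In both EuMycC2ko215 was by far the highest, and without it the log2 fold changes were 0.21 for *Prdx2* and 0.27 for *Gpx1*. *Cat* was at 288, 193, 162 and 200.05 CPM in wild type and 144, 165 and 131 CPM in null lymphomas (-0.52 ± 0.20, FDR 0.45), and the groups overlapped, since EuMycC2ko239 lay above EuMyc829.

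EuMycC2ko215 had the highest value of the 7 lymphomas in 18 of the 40 redox genes (45.0%, against 25.5% of all genes tested). It held 23.1 CPM of *Slc7a11* and 4.10 CPM of *Nqo1*, where the other lymphomas had at most 7.85 and 0.637 CPM. Its T cell marker sum, library size and unmapped share also stood apart, and their part in these values was not tested.

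**Figure D4:**
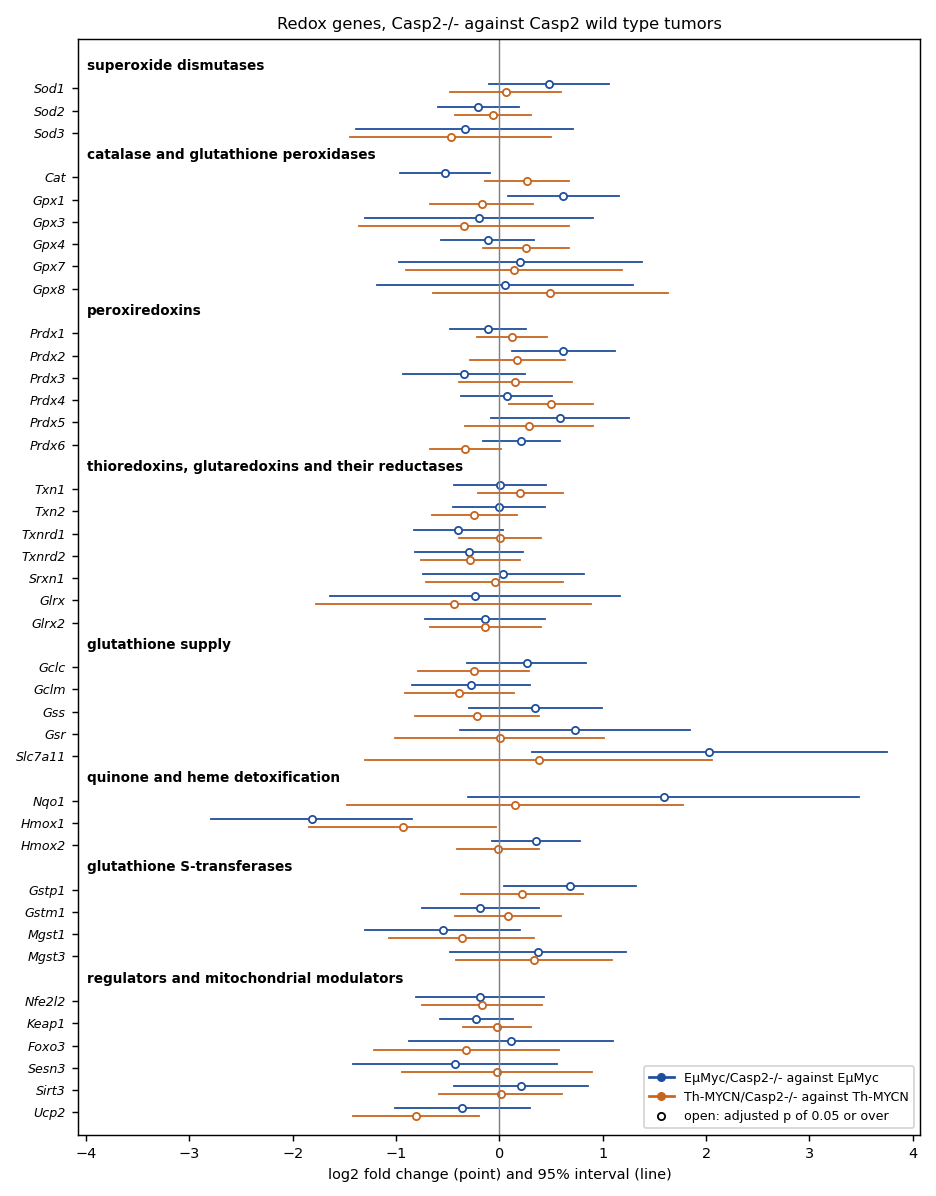
Log2 fold changes (x axis) of the 40 tested redox genes for *Casp2*-/- against *Casp2* wild type tumors, grouped by role, with lines for the 95% interval; blue is lymphoma, orange neuroblastoma, and open points have an FDR of 0.05 or over. All points are open, and *Hmox1* lies left of 0 in both tumor types (-1.82 and -0.94).

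The precision of these comparisons bounds what could be seen. The 95% interval of the log2 fold change lay within 2-fold in either direction for 27 of the 40 redox genes in the neuroblastomas and for 21 in the lymphomas, with median half-widths of 0.56 and 0.60. For *Nfe2l2* the intervals were -0.75 to 0.41 in the neuroblastomas and -0.81 to 0.43 in the lymphomas, and for *Keap1* -0.35 to 0.30 and -0.58 to 0.13. The widest belonged to genes of low count or uneven level, among them *Slc7a11* (0.31 to 3.75 in the lymphomas) and *Nqo1* (-0.30 to 3.48). Both rested on EuMycC2ko215, without which the log2 fold change went from 2.03 to 0.83 for *Slc7a11* and from 1.59 to -0.79 for *Nqo1*, and neither was called with or without it.

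Whether loss of *Casp2* acted differently on the redox genes in the 2 tumor types was asked with the interaction of genotype and tumor type. None of the 40 was called (0.0538% of all genes), the likelihood ratio test (0.914%) and DESeq2 (0.847%) called 0, and 3 had an unadjusted p under 0.05 (7.57% of all genes). Those 3 were *Cat* (-0.79 ± 0.28, FDR 0.488), *Prdx6* (0.54 ± 0.24, FDR 0.622) and *Gpx1* (0.79 ± 0.34, FDR 0.627). The interaction is less precise than the comparisons within a tumor type, since its 95% interval lay within 2-fold in either direction for 12 of the 40, with a median half-width of 0.83. The *Cat* means were 211 ± 53.96 (SD, n = 4) and 147 ± 16.8 (SD, n = 3) CPM in wild type and null lymphomas and 37.03 ± 3.74 (SD, n = 4) and 44.5 ± 8.63 (SD, n = 4) in the neuroblastomas. The interaction of *Gpx1* was 0.44 without EuMycC2ko215.

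**Figure D5:**
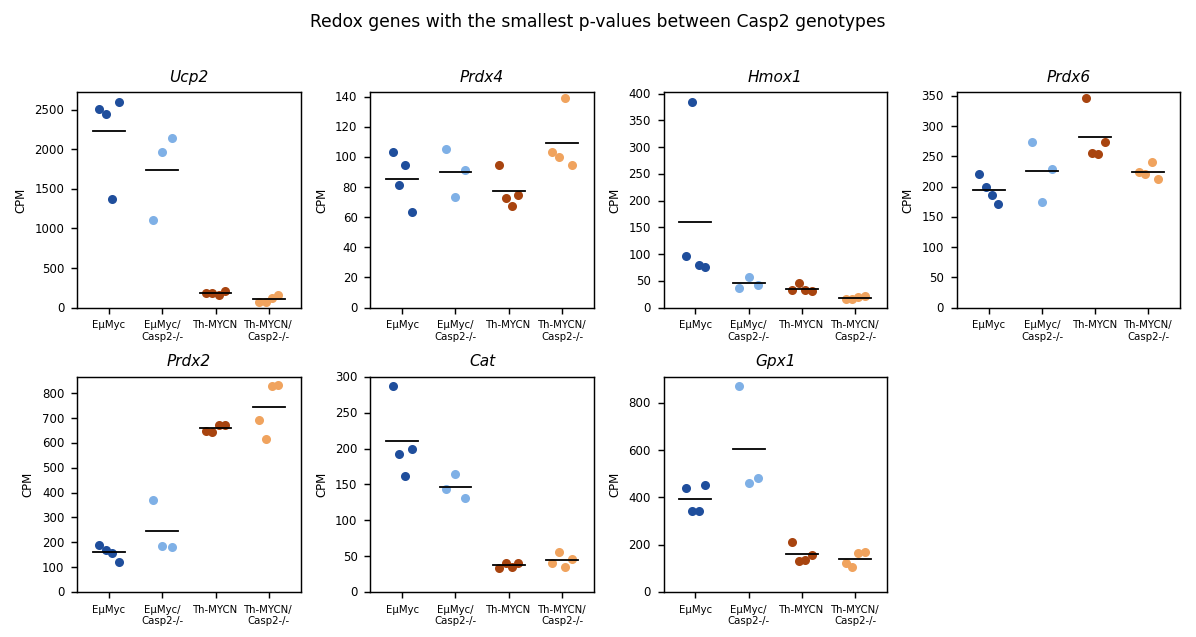
CPM from 0 (y axis) for each tumor in the 4 groups (x axis) for the 7 redox genes with the smallest p-values between *Casp2* genotypes or in the interaction; each point is 1 tumor and each line a group mean. All null points of *Hmox1* lie below all wild type points within each tumor type, with an FDR over 0.05, and single tumors, EuMyc743b for *Hmox1* and EuMycC2ko215 for *Prdx2* and *Gpx1*, sit far from their groups.

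A further 71 genes of redox pathways outside the 41, of which 69 were tested, were counted in the same way. Between *EμMyc* and *Th-MYCN* tumors 44 were called (63.8%, beside 60.3% of all genes, with 25 higher and 19 lower), and 43 between the null tumors (62.3%, beside 58.3%, with 28 higher and 15 lower). Without EuMycC2ko215 the comparison of null tumors lost *Fth1* (FDR 0.187), *Txnip* (0.0689), *Txnrd3* (0.0596) and *Ncf1* (0.0732). It then gained *Cul3* (FDR 0.0370), *Maff* (0.0408) and *Oplah* (0.000353). Neither genotype comparison called any by the quasi-likelihood test, the likelihood ratio test or DESeq2, and an unadjusted p under 0.05 was reached by 2 in the neuroblastomas (6.77% of all genes) and 8 in the lymphomas (8.53%).

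NADPH oxidases produce superoxide. Of their 7 subunit genes 5 were higher and 1 lower in *EμMyc* than in *Th-MYCN* tumors, where 27.4% of all genes were higher and 32.9% lower. In the null lymphomas 6 were higher and 1, *Nox4*, lower, where 26.8% and 31.4% of all genes were. Of these *Ncf1* lost its call without EuMycC2ko215 (1.32, FDR 0.0732). *Rac2*, the small GTPase of the leukocyte oxidase, was at 587, 577, 429.7 and 576 CPM in *EμMyc*, 462, 458 and 471 in *EμMyc/Casp2*-/-, 9.16, 9.95, 8.71 and 26.6 in *Th-MYCN* and 3.96, 5.72, 6.36 and 9.10 in *Th-MYCN/Casp2*-/- tumors (5.32 ± 0.32, FDR 1.18e-08, and 6.21 ± 0.35, FDR 6.81e-09). *Ncf4*, a cytosolic subunit, was at 66.6 to 140 CPM in lymphomas and 2.23 to 5.19 CPM in neuroblastomas (5.07 and 4.74). These are genes of blood cells, and the catalytic subunit *Cybb* had log2 fold changes of 0.14 ± 0.47 (FDR 0.806) and 2.13 ± 0.51 (FDR 0.00207). *Cybb* was at 30.7, 83.0 and 12.9 CPM in the null lymphomas and 7.85 to 10.8 in the null neuroblastomas, with EuMycC2ko239 by far the highest.

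Of the 20 further glutathione genes tested, 5 were higher and 7 lower in *EμMyc* than in *Th-MYCN* tumors (27.4% and 32.9% of all genes). Between the null tumors 6 were higher and 5 lower (26.8% and 31.4% of all genes). The transferase *Gstt2* was at 15.5 to 84.2 CPM in lymphomas and 1.73 to 3.73 CPM in neuroblastomas (3.72 and 4.45). The carbonyl reductase *Cbr3*, counted with the Nfe2l2 targets, was also higher (3.56 and 2.39), the second value falling to 1.05 (FDR 0.211) without EuMycC2ko245. *Gstm5* was at 1.27 to 7.17 CPM in lymphomas and 102 to 187 CPM in neuroblastomas, *Ggt7* at 0.404 to 10.5 and 106 to 199.9, and *Gstm7* at 0 to 1.17 and 10.5 to 22.7, with EuMycC2ko215 the highest lymphoma for the last 2. *Chac1*, which degrades glutathione, was at 0 to 1.05 CPM in lymphomas and 4.14 to 13.9 in neuroblastomas. Among the partners of Nfe2l2, *Bach2*, a repressor of B cells that binds related elements, was higher in lymphoma (2.68 and 2.53), as was the small Maf protein *Mafk* (2.67 and 2.35). *Mafk* was at 46.3 to 69.2 CPM in lymphomas and 7.09 to 13.9 in neuroblastomas. Another small Maf, *Mafg*, was lower (-1.09 and -0.97), and *Maff* had -1.29 (FDR 0.0299) and -1.12 (FDR 0.0809), the latter -1.49 (FDR 0.0408) without EuMycC2ko215. These 4 were chosen after their values were seen.

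Between genotypes the smallest p-values among these further genes were those of *Rac2* (-1.12 ± 0.33, FDR 0.343) and *Gsto1* (0.60 ± 0.25, FDR 0.658) in the neuroblastomas. In the lymphomas they were *Gstm7* (2.45 ± 0.71, FDR 0.214), on at most 7 reads per tumor (1.96 without EuMycC2ko215 and 3.28 without EuMyc614), and *Txnrd3* (1.37 ± 0.43, FDR 0.298). *Txnrd3* was at 17.8, 11.9, 21.02 and 26.2 CPM in *EμMyc* and 95.5, 29.5 and 24.1 in *EμMyc/Casp2*-/- lymphomas, and without EuMycC2ko215 its log2 fold change was 0.50.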

How the data were processed

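The authors sequenced poly(A)-selected RNA as single 50-base reads, mapped these with STAR to mm10/GRCm38, and deposited unnormalized counts per gene. The version of STAR is not given in the sources used here. Of the 3 deposited count columns the second strand one was used, as in the study. It held 48.8% to 49.3% of strand-assigned reads, so the libraries do not mark strand, and exons of 9 redox genes overlap another gene. Reads that mapped to several places (15.0% to 24.2% of reads) and others on no gene were left out of library sizes, in all 33.0% to 43.8%. Libraries held 4940464 to 17638029 reads, and 3 reads are worth 0.173 to 0.586 CPM, which covers counting error only. A further *EμMyc/Casp2*-/- tumor that the study removed is not analysed here.

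Tests used edgeR 4.0.16 and limma 3.58.1 under R 4.3.3: TMM, genes over 1 CPM in at least 3 tumors, 1 model with 4 group means over all 15 tumors, and the quasi-likelihood test with Benjamini-Hochberg adjustment over all 14880 genes. Errors of log2 fold changes are standard errors, and intervals use the quasi-likelihood degrees of freedom. Alternatives were the likelihood ratio test, DESeq2 1.42.0, its size factors, library totals, no filter, reads on either strand, only the groups compared, sex or onset as a covariate, and leaving out each tumor. For the covariate, sex was taken as female where *Xist* reads lay above *Ddx3y* reads. Per-kilobase levels use the longest APPRIS principal transcript in GENCODE M21.

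Each library came from another mouse. For the 21 pairs of libraries from 1 group, chi-square divided by its degrees of freedom was 16.2 to 76.0, far above counting error. The genes and lists were chosen with earlier results of these data known. The rule for genes with values per tumor took the 12 largest differences between tumor types among genes called without overlap in both comparisons, the 4 smallest p-values in each genotype comparison, the 3 smallest in the interaction, the most abundant gene, any gene that failed the filter, *Nfe2l2*, *Keap1* and, outside the 41, the 4 largest differences in each direction and the 2 smallest p-values per genotype comparison. Other genes named with values were chosen after their values were seen. The files name *Adgre1* as *Emr1*, and 3 red cell markers on the list were not found by symbol.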

Additional observations from a re-analysis of the deposited data

Results flagged for a closer look

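In groups of 4 tumors, 1 tumor was set apart when its gap to the nearest other took a larger share of the range of the group than Dixon's critical value allows. That held for 12 of 120 combinations of a redox gene and a group, or 10.0%, beside 8.67% of the 44263 combinations over all genes tested, while chance alone sets apart about 1 in 20 in normally distributed values. Among the *EμMyc* lymphomas, EuMyc743b had 384 CPM of *Hmox1*, EuMyc829 had 1365 CPM of *Ucp2* (low), 166 of *Sod2* and 28.3 of *Mgst1*, and EuMyc835 had 137 CPM of *Sod1* (low). The next *Mgst1* value was 27.0 CPM. In the *Th-MYCN* tumors MYCN332 had 34.5 CPM of *Gpx4* and 76.9 of *Hmox2*, and MYCN235 had 46.1 CPM of *Hmox1*, all above the other 3. Among the *Th-MYCN/Casp2*-/- tumors MYCNC2ko118 was low for *Gpx4* (34.2 CPM) and MYCNC2ko176 low for *Foxo3* (5.88 CPM, the next tumor at 21.0) and high for *Slc7a11* (1.74 CPM), while MYCNC2ko180 was high for *Sirt3* (28.1 CPM). The *EμMyc/Casp2*-/- group of 3 was too small for this rule.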

How the results depend on the processing

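The number of redox genes called was 0 in the neuroblastoma genotype comparison and in the interaction under each alternative run. In the lymphoma genotype comparison it was 0 except under the likelihood ratio test and under DESeq2, which each gave 1. Leaving out each tumor in turn gave 0 to 0 in both genotype comparisons and in the interaction, 21 to 22 between *EμMyc* and *Th-MYCN* tumors (55.3% to 58.2% of all genes in these fits) and 18 to 24 between the null tumors (53.6% to 58.7%), and with onset as a covariate the last was 17 (48.8%). The calls over all genes were less steady between genotypes, 5 in the neuroblastomas and 21 in the lymphomas by the quasi-likelihood test against 133 and 223 by the likelihood ratio test and 141 and 219 by DESeq2, and 2 to 26 and 10 to 164 with each tumor left out, the highest without MYCN175 and without EuMycC2ko245. Of 527 values of single named genes under the 9 other settings, 519 kept their direction and side of the threshold, 2 lost the call, 5 gained one and 1 reversed. *Keap1* between the null tumors, not called, had a log2 fold change of 0.03, -0.015 with onset as a covariate, and -0.083 to 0.17 when each tumor was left out (below 0 only without EuMycC2ko245). *Hmox1* between the null tumors lost its call with sex (FDR 0.0631) or onset (FDR 0.245) as a covariate and without EuMycC2ko239 (FDR 0.0725), MYCNC2ko118 (FDR 0.0610) or MYCNC2ko144 (FDR 0.0584), and *Cbr3* without EuMycC2ko245 (0.211). *Casp2* in the lymphomas passed by the likelihood ratio test (FDR 0.000400), DESeq2 (0.000310), without the filter (0.0452) and without EuMycC2ko245 (0.0253), its FDR running from 0.000310 to 0.892 over all alternatives. The causes were not tested. No paired analysis was possible because the labels give mouse names and no replicate number shared between groups.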

Other observations

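The redox genes varied less between tumors of the same group than other genes did in 3 of the 4 groups. The median coefficient of variation over the 40 tested genes was 23.9% in *EμMyc*, 39.4% in *EμMyc/Casp2*-/-, 14.8% in *Th-MYCN* and 17.7% in *Th-MYCN/Casp2*-/- tumors, beside 29.4%, 36.9%, 17.9% and 23.8% over all genes tested. The null lymphomas, the group that holds EuMycC2ko215, were the exception. These are descriptions over genes that share libraries, with no test. The redox genes and all genes tested were not matched for level, and the part of level in these values was not tested.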
